A study of Rattus norvegicus with 20 samples.

Results

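The rat major histocompatibility complex, named RT1, and the genes that work with it were followed through 5 regions of the injured nervous system of 4 rats. The genes were chosen by name: every gene whose symbol starts with RT1-, plus Cd74, Ciita, B2m, Tap1, Tap2, Tapbp, Psmb8 and Psmb9. Repeated symbols were reduced to their entry of highest mean level. This gave 42 genes of the 30443 in the table: 24 class I heavy chains, 10 class II chains, 6 partners of class I and 2 partners of class II. Of these, 33 of 15210 genes reached 1 FPKM (a read level scaled to transcript length and to library size) in at least 1 library and were tested. The other 9 were Ciita, Tap2, RT1-CE3, RT1-M5, RT1-DMa, RT1-DMb, RT1-DOa, RT1-DOb and RT1-Ha, and their levels are given as values. A gene that passed only through the group in which it was high had to differ there, so counts over the 33 genes describe those genes and not the whole family.

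Class I molecules carry peptides from inside a cell to its surface, where CD8 T cells read them. A heavy chain, coded by genes such as RT1-A2, pairs with beta-2-microglobulin (B2m). The peptides are cut by the proteasome, in which Psmb8 and Psmb9 replace subunits of the ordinary particle, carried into the endoplasmic reticulum by the transporter Tap1 and Tap2, and loaded with the help of tapasin (Tapbp). Class II molecules carry peptides from taken-up material for CD4 T cells. They pair an alpha with a beta chain (RT1-Ba with RT1-Bb, RT1-Da with RT1-Db1), travel with the invariant chain Cd74, are loaded with the help of RT1-DM, and are switched on by the transactivator Ciita. In the central nervous system, microglia, border macrophages and infiltrating leukocytes are the usual source of class II.

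The animals were adult female wild-type Long-Evans rats, an outbred stock, aged about 6 to 8 months by the labels. All 4 had a hemi-contusion at cervical level 4 with a displacement of 0.7 mm and, later, electrodes implanted in motor cortex on the other side, with dexamethasone before the implant and antibiotic and analgesic drugs after surgery. The 2 stimulated animals received pulses at 10 Hz and 80% of the movement threshold for 5 hours a day, in cycles of 5 minutes on and 2 minutes off, over about 1 week by the labels, while the 2 control animals had the same injury, implant and a sham connection. From each animal, region 1 was a block of about 5 mm3 of white matter under the implant, region 2 the matching block of the other hemisphere, and regions 3, 4 and 5 were cord rostral to the lesion, at the lesion and caudal to it. All 20 libraries thus came from 4 animals, with 2 per group. P-values for stimulation measure the spread between animals of a group. Those for regions count libraries of the same animal as separate. In fits with a term for the animal, they measure the spread left within animals. The labels and the study's methods give slightly different cervical levels for region 5.

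The labelled tissues were checked by marker genes. The homeobox gene Hoxb6, a mark of cord, stood between 7.01 and 12.6 FPKM in the 12 cord libraries and at the floor of 0.1 in all 8 white matter libraries. Slc17a7, the vesicular glutamate transporter of cortical neurons, stood between 225 and 329 FPKM in the white matter libraries, and Mbp, a myelin protein, was lower there (385 to 1484 FPKM) than in cord (3836 to 5813 FPKM). The blocks labelled white matter therefore also held RNA of cortical neurons. In such bulk tissue, fewer cells of a type and less RNA per cell cannot be told apart.

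Both white matter libraries of stimulated animal 2 stood apart from the other 3 animals in these genes. Of the 33 genes, 26 were highest in that animal in region 1 (24.2% of all genes tested were) and 29 in region 2 (43.9% of all genes). Its level was more than 2-fold over the next animal for 19 genes in region 1 (5.83% of all genes) and 23 in region 2 (9.04% of all genes). RT1-CE6 reached 1 FPKM only in these 2 libraries, and RT1-Db2 only in that of region 2. Both thus entered the test through the libraries compared, and both are in each of these counts, which are descriptions. In regions 3, 4 and 5 the same animal was highest for 2, 0 and 15 of the 33 genes, against 7.5%, 11.5% and 45.4% of all genes. Results that rest on these 2 libraries are given with and without them.

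Most of the genes sit close together: 39 of the 42 lay on chromosome 20 in the RefSeq annotation of build GRCr8, and B2m, Cd74 and Ciita lay elsewhere. The promoter sequences of the class II genes that moved together and of RT1-A2, the class I gene with the highest mean level, are shown as 130 bases before the start of each gene, on the gene's strand, from RefSeq. Capitals mark the CCAAT box (ATTGG, or CCAAT where it lies on the other strand), the Y box of class II promoters, and the X box core (CCTAGCAAC with up to 1 mismatch).
RT1-Da, alpha chain, chr20:4515285-4515414, plus strand: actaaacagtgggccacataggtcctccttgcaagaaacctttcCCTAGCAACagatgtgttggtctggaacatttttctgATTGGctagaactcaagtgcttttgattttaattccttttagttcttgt
RT1-Db1, beta chain, chr20:4560163-4560292, minus strand: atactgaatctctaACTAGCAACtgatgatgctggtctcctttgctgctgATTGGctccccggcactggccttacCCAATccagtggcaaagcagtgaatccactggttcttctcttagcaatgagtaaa
RT1-Ba, alpha chain, chr20:4576927-4577056, plus strand: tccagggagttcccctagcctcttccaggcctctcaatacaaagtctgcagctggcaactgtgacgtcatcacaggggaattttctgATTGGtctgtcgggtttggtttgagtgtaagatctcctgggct
RT1-Bb, beta chain, chr20:4604119-4604248, minus strand: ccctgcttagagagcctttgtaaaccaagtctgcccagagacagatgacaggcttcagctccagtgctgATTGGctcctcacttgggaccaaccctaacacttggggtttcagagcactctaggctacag
RT1-A2, class I heavy chain, chr20:4872741-4872870, plus strand: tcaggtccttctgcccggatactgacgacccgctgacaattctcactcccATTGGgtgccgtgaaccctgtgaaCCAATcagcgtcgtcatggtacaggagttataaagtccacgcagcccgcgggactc

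All 4 class II sequences held an ATTGG on the gene's strand, 43 bases before the start in RT1-Ba, 49 in RT1-Da, 61 in RT1-Bb and 80 in RT1-Db1. The windows searched ran from 250 bases before the start to 50 after, on both strands, and 38 of the 42 genes had one. ATTGG occurred in 9 of 9 class II windows and in 16 of 22 class I windows, against 37.7% of all 27457 promoters. The X box core occurred in 4 of 9 class II windows (RT1-Da, RT1-Db1, RT1-DOb and RT1-Ha) in that of Cd74, in 2 of 6 class I partners (Psmb9 and Tap1) and in 3 of 22 class I windows, against 8.17% of all promoters. Between the X box core and the next ATTGG lay 28 bases in RT1-Da and RT1-Ha, 27 in RT1-Db1 and 25 in RT1-DOb. The core of the interferon-stimulated response element (TTTCNNTTT) occurred in 5 of 6 class I partners (B2m, Tapbp, Psmb8, Tap1 and Tap2), in 6 of 22 class I windows and in 1 of 9 class II windows, against 11.5% of all promoters. Such matches are letters in a window and were not tested for binding.

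Class I RNA was present in every library. B2m had the highest mean of these genes, at 201 FPKM over the 20 libraries, followed by Cd74 at 57.5. Among heavy chains RT1-A2 (21.1), RT1-CE4 (14.4) and RT1-CE10 (7.94) had the highest means. The means of the other tested heavy chains ran from 0.324 (RT1-M2) to 6.72 FPKM (RT1-CE5), and RT1-M5 was at 0.1 in 19 libraries. Class I heavy chains resemble each other, MHC genes vary between outbred rats, and reads were aligned to 1 reference, so reads may be shared or lost among paralogs and the level of a single heavy chain is uncertain. Among class II chains, RT1-Da had the highest mean at 15.2 FPKM, then RT1-Ba (10.4), RT1-Db1 (5.05) and RT1-Bb (4.01).

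Several genes of the class II pathway were at or near the floor. Ciita was between 0.1 and 0.21 FPKM in 18 libraries and reached 0.69 and 0.829 in regions 1 and 2 of stimulated animal 2. RT1-DMa was at 0.1 in 18 libraries and RT1-DMb did not pass 0.636, whereas Cd74, which the DM dimer helps to remove from class II, was never under 2.17 FPKM. RT1-DOa was at 0.1 in 16 libraries. RT1-Ha and the transporter subunit Tap2 were listed at 0.1 in all 20 libraries, although Tap1, the other subunit of the same transporter, was between 0.564 and 5.27 FPKM. RT1-DMa was at 0.1 even in region 2 of stimulated animal 2, where Cd74 stood at 384. Whether such floor values reflect absent RNA or the way reads were assigned to these entries was not tested.

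**Figure D1:**
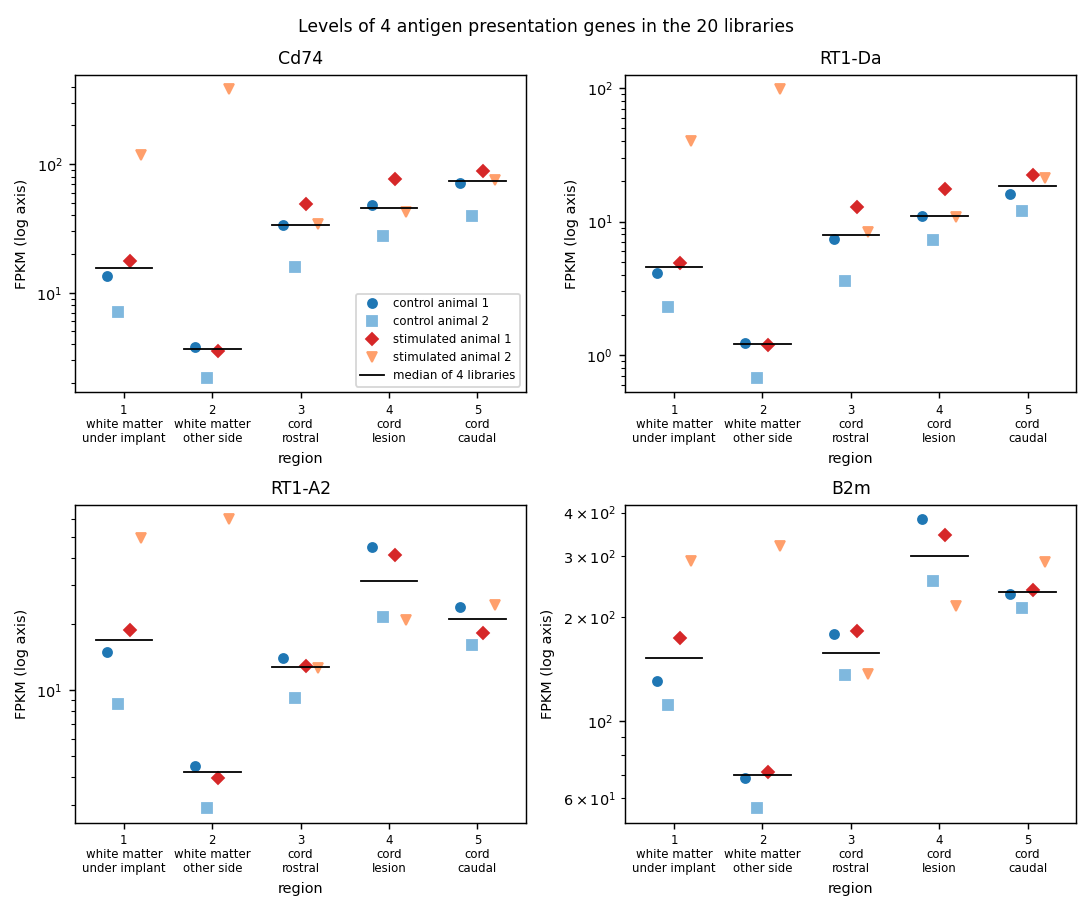
Level of Cd74, RT1-Da, RT1-A2 and B2m (FPKM, log axis) in each of the 20 libraries, by region, with colour and shape for the 4 animals and a line at the median of 4 libraries. Stimulated animal 2 lies far above the others in regions 1 and 2 (Cd74 at 118 and 384 FPKM), while in cord Cd74 and RT1-Da have their highest medians caudally and RT1-A2 and B2m at the lesion.

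The 3 cord regions show how both arms of antigen presentation lay along the injured cord of all 4 animals. Summed over the 24 heavy chains, class I had its highest median at the lesion, at 134 FPKM, against 102 caudally and 70.9 rostrally. In stimulated animal 2 the class I sum was instead lower at the lesion than caudally, at 87.9 against 113 FPKM. The other animals ran from 105 to 183 at the lesion and from 81.6 to 107 caudally. Summed over the 10 class II chains, the median was highest caudally, at 41.9 FPKM, against 25.7 at the lesion and 18.3 rostrally. The fit of all 20 libraries called 1 of the 33 genes between lesion and rostral cord and none between caudal and rostral cord. A fit within animals of the 12 cord libraries, chosen after the data had been seen, called 19 (31.0% of all genes) and 11 (16.8% of all genes), all higher than rostrally. In that fit Cd74, RT1-Ba, RT1-Da and RT1-Db1 were lower at the lesion than caudally.

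RT1-A2 stood at 13.9 and 9.18 FPKM in the control animals and 12.8 and 12.5 in the stimulated animals in rostral cord. At the lesion it stood at 44.7 and 21.6 in the control animals and 41.1 and 20.9 in the stimulated animals. The regions did not overlap, and within each animal the level at the lesion was 1.67-fold to 3.20-fold the rostral level. B2m went from between 136 and 182 FPKM rostrally to between 215 and 383 at the lesion, higher in 4 of 4 animals by 1.57-fold to 2.14-fold. Psmb8, a subunit of the immunoproteasome, stood between 1.26 and 2.24 FPKM rostrally and between 3.32 and 5.64 at the lesion, without overlap.

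Cd74 stood at 33.6 and 15.8 FPKM in the control animals and 48.6 and 34.1 in the stimulated animals in rostral cord. At the lesion it stood at 48.1 and 27.5 in the control animals and 76.0 and 42.5 in the stimulated animals. In caudal cord it stood at 71.4 and 39.8 in the control animals and 88.6 and 75.3 in the stimulated animals. The ranges of the 3 regions overlapped, yet in each of the 4 animals the order was rostral, lesion, caudal from low to high. RT1-Da, RT1-Ba and RT1-Db1 had this order in 4 of 4 animals too, with a caudal level 1.73-fold to 3.38-fold the rostral one for RT1-Da. Of all genes, 29.9% were lower at the lesion than caudally in 4 of 4 animals, and 31.9% were higher caudally than rostrally, against 4 and 22 of the 33 genes. RT1-Bb broke the order in control animal 1, where it stood at 2.27, 2.89 and 2.54 FPKM from rostral to caudal.

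By limma on log2 FPKM with Benjamini-Hochberg adjustment over all genes tested, the fit of all 20 libraries called 1 of the 33 genes between lesion and rostral cord (19.6% of all genes were called). It was RT1-M2, at 0.1 FPKM in 3 of the 4 rostral libraries and between 0.298 and 2.37 FPKM at the lesion. RT1-M2 reached 1 FPKM in 1 library, at the lesion, and so entered the test only through the region where it was high. Its calls between lesion and the other cord regions are thus descriptions and support nothing, and its size depends on the floor. The spread in that fit includes both white matter libraries of stimulated animal 2. With the 12 cord libraries alone, a choice made after these libraries had been seen, 15 of 33 were called, all higher at the lesion (31.5% of all genes, in either direction). With the animal as a block in the 12 cord libraries, 19 were called, all higher (31.0% of all genes).

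In that last fit of the cord, the rise at the lesion over rostral cord was 1.33 on the log2 scale for RT1-A2 (SE 0.20, adjusted p = 0.0025, limma). The other named heavy chains rose by 1.31 (RT1-CE10, SE 0.22) and 0.90 (RT1-CE4, SE 0.16), and among partners Psmb8 rose by 1.26 (SE 0.21), Tap1 by 0.98 (SE 0.13), B2m by 0.89 (SE 0.17) and Psmb9 by 0.83 (SE 0.26). Tapbp was higher by 0.32 (SE 0.17) and did not pass. In the class II arm, RT1-Ba rose by 0.68 (SE 0.10), RT1-Da by 0.60 (SE 0.15) and Cd74 by 0.57 (SE 0.10), while RT1-Db1, RT1-Bb and RT1-Db2 did not pass. None of these class II genes passed without the block: Cd74 had an adjusted p of 0.30 by limma in the 12 cord libraries, in which the animals' own levels of class II differ. In 4 of 4 animals, 22 of the 33 genes were higher at the lesion than rostrally, against 24.1% of all genes, and none was lower in all 4.

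Between caudal and rostral cord, the fit of all 20 libraries called none of the 33 genes (4.32% of all genes), with none at an unadjusted p under 0.05 (24.7% of all genes). The 12 cord libraries called 5 by limma (RT1-CE4, B2m, Psmb8, Tap1 and RT1-Da, 16.9% of all genes) and 11 with the animal block (16.8% of all genes), all higher caudally. With the block, RT1-Da rose by 1.24 (SE 0.15, adjusted p = 0.0050), RT1-Ba by 1.17 (SE 0.10), RT1-Db1 by 1.15 (SE 0.15), Cd74 by 1.11 (SE 0.10, adjusted p = 0.0028) and RT1-Bb by 1.06 (SE 0.27), all on the log2 scale of limma. The rise of RT1-A2 was 0.77 (SE 0.20) and that of B2m 0.62 (SE 0.17). Medians over the tested genes were 1.15 for class II, 0.40 for class I and 0.62 for the class I partners, beside 0.11 for all genes.

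Between lesion and caudal cord, 4 genes of the class II arm were lower at the lesion in the fit within animals. The fit of all 20 libraries called RT1-M2 alone by limma (7.99% of all genes), with the limits given above. With the animal block in the 12 cord libraries, 5 genes were called (7.62% of all genes). Relative to caudal cord, RT1-Db1 fell by 0.80 (SE 0.15, adjusted p = 0.037), RT1-Da fell by 0.64 (SE 0.15), Cd74 fell by 0.54 (SE 0.10) and RT1-Ba fell by 0.49 (SE 0.10), and RT1-M2 was the gene called on the higher side. RT1-A2 was higher at the lesion by 0.57 (SE 0.20), B2m by 0.27 (SE 0.17) and Psmb8 by 0.38 (SE 0.21), none of which passed. These rises rest on the other animals, since in stimulated animal 2 all of these genes were lower at the lesion. There RT1-A2 stood at 20.9 against 24.4 FPKM caudally, B2m at 215 against 288 and Psmb8 at 3.32 against 3.86. The medians were -0.49 for class II, 0.40 for class I, 0.23 for class I partners and -0.14 for all genes tested. Another scaling of the libraries moved the all-gene median of this comparison by 0.11 (quantile) and 0.16 (upper quartile) and kept the sign of these 3 list medians.

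**Figure D2:**
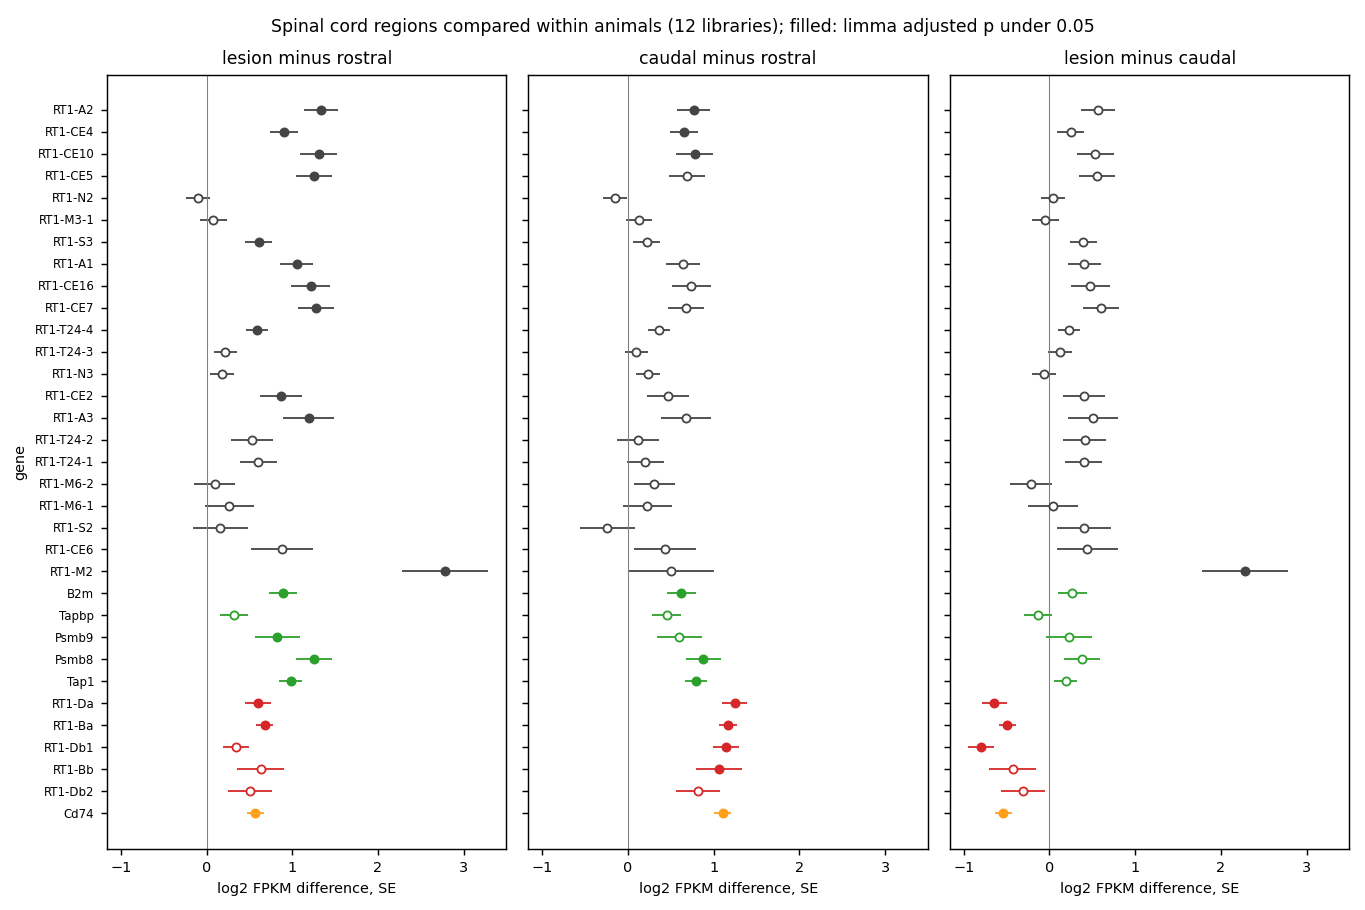
Difference in log2 FPKM (points, with SE bars) between cord regions for the 33 tested genes, fitted within animals in the 12 cord libraries, with filled points where the limma adjusted p was under 0.05 and colours for class I (grey), class I partners (green), class II (red) and Cd74 (orange). In lesion minus rostral, 21 of 22 class I genes lie right of 0, in caudal minus rostral RT1-Da lies farthest right (1.24), and the tested class II genes and Cd74 lie left of 0 in lesion minus caudal.

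Further genes of these pathways were read in the fit of all 20 libraries, in which 19.6% of all genes were called between lesion and rostral cord. Of 12 further class II pathway genes, 6 were higher at the lesion and 1, the promoter-binding factor Rfx5, was lower by 0.32 on the log2 scale (SE 0.09). The largest rises were those of cathepsin B (Ctsb, 1.41, SE 0.28), the endosomal protease legumain (Lgmn, 1.23, SE 0.35) and the costimulatory ligand Cd86 (1.07, SE 0.23). None of 9 further class I pathway genes passed (median 0.52), and none of the 3 ordinary proteasome subunits Psmb5, Psmb6 and Psmb7 did (median -0.16). Of 8 genes of interferon gamma signalling, Irf8 rose by 1.82 (SE 0.56) and Ifngr1 by 0.83 (SE 0.27). Ifng itself was listed at 0.1 FPKM in 19 libraries and at 0.104 in the other.

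From rostral cord to the lesion, microglia and macrophage markers moved in the same direction as both classes. Between lesion and caudal cord the median of their sum was higher at the lesion (505 against 359 FPKM), whereas that of class II was lower. In stimulated animal 2 the marker sum was lower at the lesion than caudally (328 against 391). The part of these markers in the results was not tested. The summed level of 11 such markers stood between 172 and 238 FPKM rostrally, 328 and 610 at the lesion and 332 and 391 caudally, and 6 of the 11 rose from rostral cord to the lesion. The marker sum was 1.87-fold to 2.56-fold higher at the lesion than rostrally within animals, against 1.35-fold to 1.84-fold for the class II sum and 1.30-fold to 2.35-fold for the class I sum. Among 6 tested T cell markers, Cd8a rose at the lesion by 4.40 on the log2 scale (SE 1.03) and Cd8b by 4.28 (SE 0.73). The T cell markers Cd3e, Cd3g and Cd5 were at 0.1 FPKM in all 12 cord libraries. The sum of the whole T cell list, which includes Cd8a and Cd8b, ran from 1.00 to 1.36 FPKM rostrally and from 3.40 to 12.1 at the lesion.

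Per 100 FPKM of the marker sum, class II stood between 3.95 and 7.62 FPKM at the lesion, between 5.47 and 13.7 rostrally and between 7.80 and 15.7 caudally. At the lesion the control animals stood at 4.33 and 3.95 and the stimulated animals at 7.41 and 7.62. The rostral values were 7.52 and 5.47 in the control animals against 13.7 and 10.6 in the stimulated animals, and the caudal values 9.32 and 7.80 against 15.7 and 12.6. On this ratio the stimulated animals were thus above the control animals without overlap in each cord region. At the lesion the class II sum itself overlapped, at 17.2 to 26.4 FPKM in the control animals and 25.0 to 42.6 in the stimulated animals. Stimulated animal 2 had the lowest marker sum there (328 FPKM, others 436 to 610). For class I the same measure ran from 24.0 to 38.4 FPKM in cord, and the groups overlapped in all 3 cord regions. These ratios are descriptions with 2 animals a group, and no test was made of them.

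**Figure D3:**
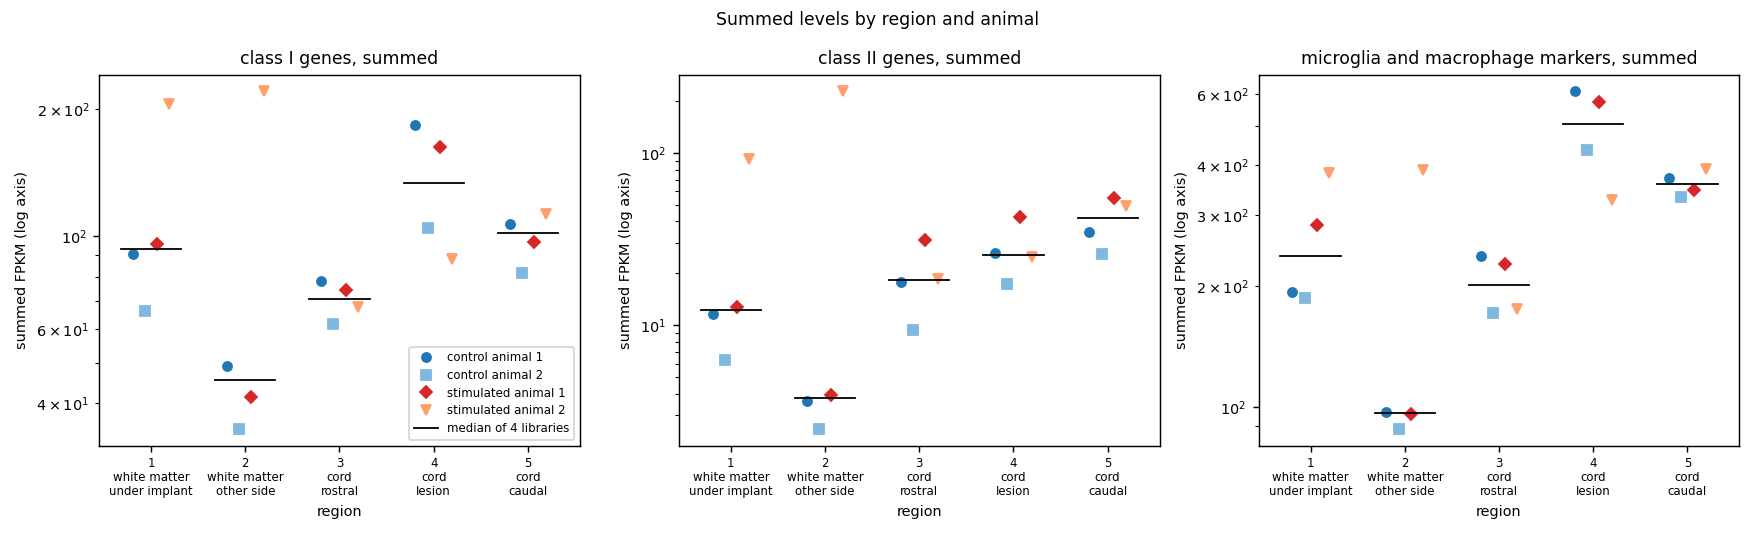
Summed level (FPKM, log axis) of 24 class I genes, 10 class II genes and 11 microglia and macrophage markers in each library, by region and animal, with a line at the median of 4 libraries. The class I and marker sums have their highest cord median at the lesion (134 and 505 FPKM), while the class II sum has it caudally (41.9 FPKM).

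White matter was compared with cord next. RT1-M6-1 and RT1-M6-2, class I genes of the RT1-M group, were the 2 members whose white matter and cord libraries did not overlap (27.1% of all genes did not). Both reached 1 FPKM in white matter alone, so they entered the test only through the tissue where they were high, and their difference is given as a description. RT1-M6-1 ran from 0.747 to 2.68 FPKM in white matter and from 0.1 to 0.509 in cord, and RT1-M6-2 from 0.934 to 3.01 and from 0.147 to 0.509. The fit of all 20 libraries called 4 of the 33 genes (72.2% of all genes). RT1-M6-2 was higher in white matter by 2.82 on the log2 scale (SE 0.25), RT1-M6-1 by 2.77 (SE 0.31) and RT1-S2, at 0.369 to 1.12 FPKM in all libraries, by 0.63 (SE 0.18). B2m fell by 0.82 (SE 0.26, adjusted p = 0.0088) relative to cord.

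Leaving out both white matter libraries of stimulated animal 2 raised the number of genes called from 4 to 29 (76.9% of all genes), 3 higher in white matter and 26 lower. Without them Cd74 fell by 2.90 (SE 0.27, limma adjusted p = 6.0e-08), against a fall of 1.62 (SE 0.75) that did not pass with them. The libraries were left out after the data had been seen. The fit had no term for the animal, so libraries of the same animal counted as separate and its p-values are not those of independent animals. RT1-Ba fell by 2.73 (SE 0.30), RT1-Da fell by 2.56 (SE 0.26), RT1-A2 fell by 1.46 (SE 0.20), B2m fell by 1.24 (SE 0.13) and Tap1 fell by 1.03 (SE 0.11). The class II sum ran from 2.51 to 12.7 FPKM (median 5.13) in the 6 white matter libraries left and from 9.39 to 54.6 (median 26.2) in the 12 cord libraries. With all 20 libraries and the animal as a block, 7 genes were called, with Cd74, RT1-Ba and RT1-T24-3 lower besides those named. The marker sum of microglia and macrophages was also lower in the 6 libraries (88.4 to 284 FPKM) than in cord (172 to 610), and 10 of its 11 genes were called lower in the fit of all libraries.

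Further genes of these pathways were also read in the fit of all 20 libraries, where 72.2% of all genes were called, so the counts are near the background. Of 9 further class I pathway genes, 7 were lower and none higher, led by the aminopeptidase Erap1 (-0.83, SE 0.14) and the proteasome activators Psme1 (-0.78, SE 0.20) and Psme2 (-0.63, SE 0.13). Of 12 further class II pathway genes, 9 were lower, led by cathepsin S (Ctss, -1.15, SE 0.19), which cuts the invariant chain, and Lgmn (-1.11, SE 0.23). March1, a ligase that removes class II from the surface, was higher by 1.02 (SE 0.13).

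Between the white matter under the implant and that of the other hemisphere, the fit of all 20 libraries called none of the 33 genes (8.61% of all genes), with 5 at an unadjusted p under 0.05 by limma (25.2% of all genes). For Cd74 and the class II sum, the level under the implant was higher in 3 animals and lower in stimulated animal 2. Cd74 stood at 13.4 and 3.76 FPKM (region 1, then region 2) in control animal 1, at 7.09 and 2.17 in control animal 2 and at 17.5 and 3.53 in stimulated animal 1. In stimulated animal 2 it stood at 118 and 384. Without the white matter of stimulated animal 2, a choice made after the data had been seen, 21 of the 33 genes were called. All were higher in region 1 (21.9% of all genes), and this rests on 3 animals in a fit without a term for the animal. There Cd74 was higher by 1.95 on the log2 scale (SE 0.44, limma adjusted p = 0.0044), RT1-Da by 1.85 (SE 0.43), RT1-A2 by 1.85 (SE 0.32), Tap1 by 1.56 (SE 0.18, adjusted p = 3.3e-05) and B2m by 1.07 (SE 0.21). The marker sum of microglia and macrophages was 1.99-fold to 2.95-fold higher in region 1 in these 3 animals.

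The white matter of stimulated animal 2 was the highest of all libraries for class II. Its class II sum was 92.2 FPKM in region 1, where the other animals stood between 6.33 and 12.7, and 227 FPKM in region 2, where they stood between 2.51 and 3.94. Cd74 was 6.73-fold over the next animal in region 1 and 102-fold in region 2. RT1-Da stood at 40.2 and 98.3 FPKM, and RT1-Ba at 22.7 and 69.8, in regions 1 and 2. Over RT1-Da, RT1-Ba, RT1-Db1 and RT1-Bb, its level was 6.04-fold to 8.18-fold the next animal in region 1 and 37.9-fold to 84.8-fold in region 2. RT1-Db2 stood 5.60-fold and 19.1-fold over the next animal. It reached 1 FPKM only in region 2 of this animal, so it entered the test through a library compared here and its folds are a description. The class I partners stood 1.67-fold to 2.53-fold over the next animal in region 1 and 3.37-fold to 6.79-fold in region 2, and RT1-A2 stood 2.62-fold and 13.4-fold over it. In this animal's region 2 the class II sum exceeded the class I sum, with a ratio of 1.03, whereas in the 18 libraries outside its white matter that ratio ran from 0.07 to 0.57.

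Markers of several other cell types differed in the same 2 libraries, and their part in these levels was not tested. The sum of fibroblast and meningeal markers was 146 FPKM in region 1 (others 27.2 to 46.1) and 42.8 in region 2 (others 6.23 to 8.70). That of blood-derived and border macrophage markers was 37.6 (others 4.66 to 8.69) and 8.80 (others 2.39 to 3.00). The astrocyte sum was 1303 (others 913 to 1222) and 1169 (others 442 to 575). The sum of general neuron markers was lower than in the other animals, at 680 (others 1042 to 1107) and 1059 (others 1164 to 1416). That of cortical neuron markers was lower in region 1, at 256 (others 293 to 375), but not in region 2, at 307 (others 289 to 328). The summed level of 9 T cell markers was 24.5 FPKM in region 1 (others 2.42 to 5.50) and 10.6 in region 2 (others 1.06 to 1.26), with none of the 9 at the floor. Cd3e stood at 1.28 and 0.965 FPKM and Cd2 at 1.88 and 0.779, against at most 0.215 and 0.167 in the white matter of the other animals. The sum of 6 B cell markers was 2.72 and 4.58 FPKM (others 0.880 to 1.71 and 0.600, where all 6 were at the floor), with the B cell receptor chain Cd79b at 0.585 and 1.32. The sum of microglia and macrophage markers was 383 and 390 FPKM (others 187 to 284 and 88.4 to 97.3), so it differed less from the other animals than class II did. Per 100 FPKM of that sum, class II stood at 24.1 and 58.2 FPKM, against 2.83 to 15.7 in the other 18 libraries. The interferon-induced factor Irf1 stood at 8.01 and 9.60 FPKM and Nlrc5, the transactivator of class I, at 1.52 and 1.18. The sum of the interferon gamma signalling genes, Irf1 among them, was 137 FPKM (others 92.9 to 106) and 135 (others 60.1 to 69.7). That is 1.29-fold and 1.94-fold the next animal.

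**Figure D4:**
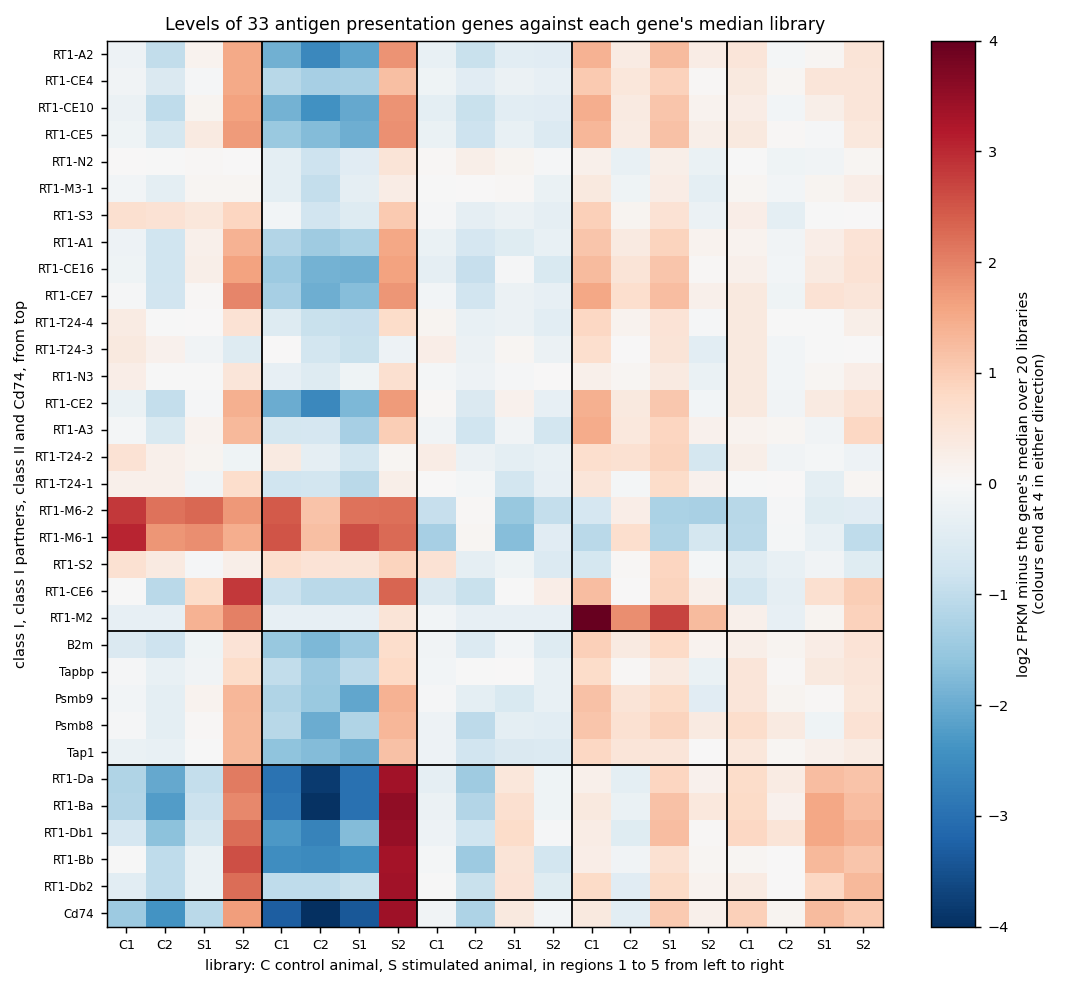
Level of each of the 33 tested genes in each of the 20 libraries, as log2 FPKM minus that gene's median over the 20 libraries (colour, ends at 4 in either direction), with regions 1 to 5 from left to right. Stimulated animal 2 is red for class II, Cd74 and most class I genes in regions 1 and 2, and RT1-M6-1 and RT1-M6-2 are red in all 8 white matter libraries.

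Stimulated and control animals were compared within each region. By limma with Benjamini-Hochberg adjustment, 0 of the 33 genes were called in any of the 5 regions, as were 0% of all genes in regions 1 to 4 and 0.0197% in region 5. At an unadjusted p under 0.05 the counts were 2, 0, 1, 1 and 6 of the 33 genes in regions 1 to 5, against 5.44%, 1.41%, 3.43%, 2.24% and 3.59% of all genes. On simulated data of the same size, this test recovered 78% to 85% of genes changed by 2 on the log2 scale and none of those changed by 1. In that simulation, which gave each gene a spread pooled over all 5 regions, a difference of 1 was thus not detectable with 2 animals a group. Genes with a smaller spread within a region were not simulated apart.

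The class II genes are described by their direction, since none passed and no test compared them with other groups. Their median differences on the log2 scale, for regions 1 to 5 in turn, were 1.92, 3.36, 0.84, 0.61 and 0.89, beside all-gene medians from -0.07 to 0.08. RT1-Da, RT1-Ba, RT1-Bb and RT1-Db1 were on the higher side in all 5 regions, where 44.7%, 68.3%, 26%, 50.4% and 64.9% of all genes were on that side in turn. So was RT1-Db2, but it reached 1 FPKM in 1 library alone, region 2 of stimulated animal 2, so that its direction there was partly fixed by the choice of genes tested. In regions 1 and 2 these sizes rest on stimulated animal 2, since stimulated animal 1 stood at 12.7 and 3.94 FPKM of class II sum beside 11.7 and 6.33 (first block) and 3.65 and 2.51 (second block) in the control animals. The regions share the same 4 animals, so they are not 5 separate observations of the direction. For class I the medians were 0.70, 0.65, -0.03, -0.27 and 0.11, and that of region 3 turned to 0.04 under quantile and upper-quartile scaling, while that of region 5 moved to 0.04 under quantile normalization, with 3 genes changing sign.

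Region 5 held the most class II genes without overlap between the groups. RT1-Bb stood at 2.54 and 2.41 FPKM in the control animals and 5.85 and 5.14 in the stimulated animals, which is 2.47 ± 0.09 against 5.50 ± 0.50 (SD, n = 2). RT1-Ba stood at 10.2 and 6.76 in the control animals and 17.4 and 14.3 in the stimulated animals. RT1-Da stood at 15.95 and 12.1 in the control animals and 22.3 and 21.1 in the stimulated animals. In these genes, and in RT1-Db1, RT1-Db2 and Cd74, the stimulated animals lay above the control animals without overlap. Markers of other cell types moved with them, and their part was not tested. The fibroblast and meningeal sum stood at 86.8 and 146 FPKM against 47.3 and 44.8 in the control animals. That of blood-derived and border macrophages stood at 10.2 and 12.5 against 7.21 and 7.47. The T cell sum, at 1.60 and 2.76 against 1.38 and 1.41, lay close to the floor, with Cd3e, Cd3g and Cd5 at 0.1 FPKM in all 12 cord libraries. The microglia and macrophage sum overlapped, at 348 and 391 against 371 and 332. The differences on the log2 scale of limma were 1.15 for RT1-Bb (SE 0.15, adjusted p = 0.52), 0.92 for RT1-Ba (SE 0.25, adjusted p = 1.0), 0.65 for RT1-Da (SE 0.16, adjusted p = 1.0) and 0.62 for Cd74 (SE 0.32, adjusted p = 1.0). RT1-CE6, a long non-coding entry at 0.128 to 0.420 FPKM, differed by 1.36 (SE 0.19, adjusted p = 0.56).

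Counted over all 33 genes, 13 were higher in the stimulated animals without overlap in region 5, against 18.5% of all genes, and none was lower, against 6.07% of all genes. For regions 1 to 4 the counts on the higher side were 20, 7, 6 and 1, against 21.2%, 20.2%, 5.14% and 12.5% of all genes. In region 3 the 6 were RT1-CE6, RT1-N3, Cd74 and 3 class II genes. Cd74 stood there at 33.6 and 15.8 FPKM in the control animals and 48.6 and 34.1 in the stimulated animals, a difference of 0.82 (SE 0.45, limma adjusted p = 0.96). At the lesion, RT1-Ba was the gene without overlap on the higher side, and Tap1 and RT1-M6-2 were the 2 on the lower side (7.69% of all genes). Tap1 stood at 3.80 and 2.96 FPKM in the control animals and 2.95 and 2.16 in the stimulated animals, a difference of -0.41 (SE 0.26, limma adjusted p = 1.0).

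**Figure D5:**
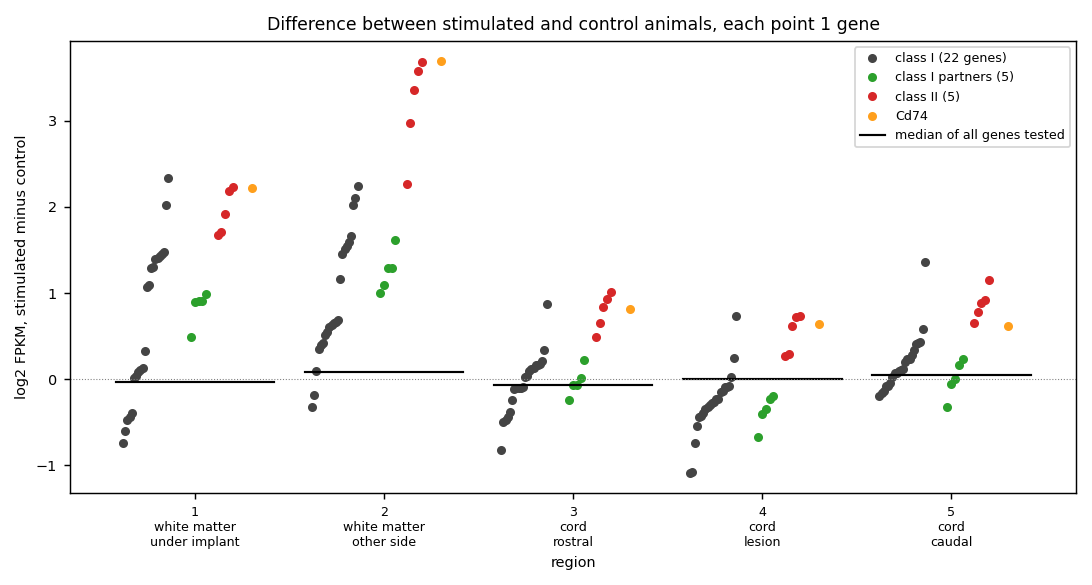
Difference in log2 FPKM between stimulated and control animals (mean of 2 animals each) in each region, each point 1 of the 33 tested genes, with colours for class I, class I partners, class II and Cd74 and a line at the median of all genes tested. The 5 class II genes and Cd74 lie above 0 in all 5 regions, and none of the 33 genes passed the limma test in any region.

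Whether stimulation differed between the implanted and the other hemisphere was tested on differences within each animal. The fit called 0 of the 33 genes and 0% of all genes, with 4 of the 33 at an unadjusted p under 0.05 by limma (4.23% of all genes). The stimulation difference of Cd74 was smaller in region 1 than in region 2 by 1.47 on the log2 scale, with an SE of 1.35. Without stimulated animal 2 its sign turned, to 0.54. On simulated data this test recovered none of the genes changed by 2. That simulation drew each library on its own, while regions 1 and 2 of an animal correlated at 0.41 to 0.77 in the data. A level shared within an animal cancels in its difference, so the simulated recovery does not give the power of this test here.

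Animals of the same group were compared next. Control animal 2 had the lowest class II sum in all 5 regions, and stimulated animal 1 the highest in the 3 cord regions. With all 20 libraries, limma called 0 of the 33 genes as different between animals of a group (0.894% of all genes), with RT1-T24-3 alone under an unadjusted p of 0.05, at 0.014 (15.5% of all genes). In the 12 cord libraries, a subset chosen after the data had been seen, it called 2 of the 33 genes (0.322% of all genes), and the other class II genes had adjusted p from 0.21 to 0.53. Cd74 was 1.88-fold higher in control animal 1 than in control animal 2 and 1.44-fold higher in stimulated animal 1 than in stimulated animal 2 (adjusted p = 0.025). RT1-Ba was 1.66-fold and 1.52-fold higher in the same order (adjusted p = 0.042). In the 8 white matter libraries RT1-CE4 was called (adjusted p = 0.042, 1.87% of all genes), 1.25-fold higher in control animal 1 than in control animal 2 and lower in stimulated animal 1 than in stimulated animal 2. For comparison, the fitted stimulated over control fold of Cd74 in caudal cord was 1.53.

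Ratios between partner genes were compared across libraries. In the 18 libraries outside the white matter of stimulated animal 2, the level of Cd74 was 2.94 to 4.52 times that of RT1-Da, while Cd74 itself ran from 2.17 to 88.6 FPKM. RT1-Da was 1.44 to 3.76 times RT1-Db1 and RT1-Ba 0.94 to 4.03 times RT1-Bb. B2m was 1.40 to 2.61 times the class I sum.

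The immunoproteasome subunits were minor beside the ordinary ones. Psmb8 was between 1.78% and 11.4% of Psmb5, the subunit it replaces, in the 18 libraries, and Psmb9 between 2.51% and 19.7% of Psmb6. At the lesion Psmb8 was at 11.4% and 10.1% of Psmb5 in the control animals and 9.29% and 8.66% in the stimulated animals, above every other cord library. In regions 1 and 2 of stimulated animal 2 it was at 15.7% and 14.0%. Psmb9 reached 30.6% and 27.8% of Psmb6 there. At the lesion Psmb9 ran from 7.25% to 19.7% of Psmb6 and overlapped its caudal range of 8.13% to 8.96%, unlike Psmb8.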

How the data were processed

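The 20 RNA-seq libraries (5 regions of 4 rats) were analysed from 1 table. The authors deposited FPKM values per gene, with values under 0.1 raised to 0.1. Per the study's methods and the submitters' processing notes, ribosomal RNA was depleted, paired reads were checked with FastQC and MultiQC 1.6, aligned to Rnor6 with TopHat2 2.1.0 and summed with Cufflinks 2.2.1; the strand used in counting is not given in the sources used here. FPKM carries no read numbers, so the depth of single genes is unknown and precision is the spread between libraries. Every column matched a sample title (0 without a sample).

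The values were log2-transformed, and genes with at least 1 FPKM in any library were kept. The linear models of limma 3.58.1 (R 4.3.3, variances moderated with an intensity trend) took the 4 libraries of each region to compare stimulation, all 20 libraries with 1 mean for each region to compare regions, differences within animals for the implant side, and terms for region and animal to compare animals. P-values were adjusted by Benjamini-Hochberg over all genes kept, with a threshold of 0.05. Other steps used Python 3.11.15, numpy 2.4.6, pandas 2.3.3 and matplotlib 3.10.9. Regions of an animal pair, as they are the same animal: deviations from group means correlated at 0.41 to 0.77 for regions 1 and 2, and at -0.09 to 0.26 between cord regions. The fits were tested on simulated data with 200 changed genes of 15210, where region comparisons recovered 78.5% to 92% of genes changed by 1 on the log2 scale. The simulated libraries were drawn independently, without a level shared by the regions of an animal.

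Members and lists were chosen with earlier results of these data known. Named with values were the 8 partners, RT1-Da, RT1-Ba, RT1-Bb, RT1-Db1, RT1-DMa, RT1-DMb, the 3 class I genes of highest mean, members that passed a test, members that differed most among animals, and up to 3 genes of each pathway list per direction. Fits of the 12 cord libraries and of 18 libraries were added after the data were seen. Alternatives tried were the pseudocount, filters, scalings, trend, replicate blocks and leaving out each animal. RT1-T24-1, RT1-CE6, RT1-N3 and RT1-Db2 were named after their values were seen. The reference sequences are of a later build than the files and were matched by symbol, so coordinates serve the printed sequences only.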

Additional observations from a re-analysis of the deposited data

Results flagged for a closer look

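Among 87 sets of the 4 libraries of a region, 34 had 1 library whose gap to its nearest neighbour exceeded 0.829 of the set's range. For independent normal values this would occur in about 1 of 20 sets. The sets share libraries and hold genes that move together, and in some the other 3 libraries were at the floor. That rate therefore does not apply, and the count is a description. Of the 34, 28 were the white matter of stimulated animal 2. There, in FPKM for region 1 and region 2, Cd74 stood at 118 and 384, Ciita at 0.69 and 0.829, Tap1 at 5.27 and 4.76, Psmb8 at 6.34 and 6.55, and RT1-CE4 at 34.7 and 27.7. In the same order RT1-Da stood at 40.2 and 98.3, RT1-Ba at 22.7 and 69.8, RT1-Bb at 14.3 and 23.9, RT1-Db1 at 13 and 31.4, and the class II sum at 92.2 and 227. In region 2 alone, B2m stood apart at 321, Tapbp at 13.1, Psmb9 at 9.10, RT1-A2 at 60.0, RT1-CE10 at 22.4, the class I sum at 220 and RT1-DMb at 0.246. In region 1 alone RT1-DMa did so at 0.114, in the library just above the floor where the other 3 were at 0.1.

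The other 6 sets lay in cord. RT1-DMb of stimulated animal 2 stood at 0.174 in region 3 and 0.213 in region 5, and RT1-DMa of control animal 2 at 0.166 in region 4, each close to the floor. Ciita stood at 0.168 in region 3 of stimulated animal 1 and at 0.1 in region 5 of control animal 2. RT1-CE10 of control animal 2 was low in region 3, at 3.49.

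Tap1 went opposite ways in regions 1 and 4: the stimulated animals were higher than the control animals without overlap in region 1 (0.91 on the log2 scale) and lower without overlap in region 4 (-0.41). That difference was not tested.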

How the results depend on the processing

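Counts below are of the 33 genes called by limma. Replicate numbers of control and stimulated rats name different animals, and the deviations of same-numbered animals correlated at -0.21, -0.10, -0.11, 0.32 and -0.16 in regions 1 to 5, so they share only a number. The replicate block called 5 genes for stimulation in region 5 (2.91% of all genes, 443 against 3) and 1 in the comparison of effects (185 against 0 of all genes), with an infinite prior df in both, and 0 for the other stimulation comparisons. With each animal left out, stimulation called 0 to 1 genes in region 1, 0 to 10 in region 2, 0 in region 3, 0 to 2 in regions 4 and 5 and 0 to 1 in the comparison of effects. A group of 1 is there assumed to vary like the other. The 10 genes of region 2 appeared without stimulated animal 1. The animal block called 7 genes between white matter and cord, 1 (RT1-T24-1) between regions 1 and 2, 3 between regions 4 and 3 and changed no other call by the fit of 20 libraries. Leaving out an animal gave 3 to 29, 0 to 22, 0 to 17, 0 to 1 and 0 to 2 genes for white matter against cord and for regions 1 against 2, 4 against 3, 4 against 5 and 5 against 3, each with its highest count without stimulated animal 2. The count between regions 4 and 3 was 0 without control animal 1 or stimulated animal 1, and that between 4 and 5 was 0 without either or without control animal 2. Without its white matter only, the counts were 29, 21, 17, 1 and 6. The 12 cord libraries gave 15, 1 and 5 genes for the last 3, and 19, 5 and 11 with the animal block. For region 4 against 3, 1 FPKM in at least 2 libraries gave 0, quantile normalization 3 and upper-quartile scaling 2; for region 4 against 5, no filter, that stricter filter and quantile normalization each gave 0; upper-quartile scaling gave 1 for region 1 against 2. The stricter filter leaves out RT1-M2; the cause of the other shifts was not tested. Among animals, 2 genes were called in the cord and 1 in white matter, against 0 in all libraries.

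Leaving out an animal moved the stimulation difference of RT1-A2 between -0.14 (without control animal 2, sign turned) and 0.47 in region 3, between -0.61 and 0.44 in region 4 (turned to 0.44 without control animal 1 and 0.40 without stimulated animal 2) and between -0.18 and 0.39 in region 5 (turned to -0.18 without control animal 2 and -0.11 without stimulated animal 2). That of B2m ran from -0.19 to 0.22 in region 3 (turned to -0.18 without control animal 2 and -0.19 without stimulated animal 1) and from -0.54 to 0.15 in region 4 (turned to 0.10 without control animal 1 and 0.15 without stimulated animal 2). The difference of effects between regions 1 and 2 ran from -3.48 to 0.54 for Cd74, -3.06 to 0.27 for RT1-Da, -1.94 to 0.59 for RT1-A2 and -1.11 to 0.33 for B2m, and its sign turned without stimulated animal 2. Over all genes, leaving out an animal moved the calls between 4 and 3 from 2984 to between 523 and 4909, those between 1 and 2 from 1310 to between 26 and 3674, and for stimulation to at most 548 (region 2). Quantile normalization raised the calls between 4 and 3 to 4842. Depth of single genes is unknown, and 2 animals a group limit what could be detected.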
